A study of Mus musculus with 12 samples.

Results

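The genes described here are 10 genes of cholesterol efflux, cholesterol esterification and the response to the liver X receptors (LXRs), chosen by name out of the 24062 genes of the count tables. They are Abca1, Abcg1, Abcg5, Abcg8, Lpcat3, Npc1, Npc2, Soat2, Lcat and Scarb1. Their RNA was measured by RNA-seq in the liver of 12 female C57BL/6J (B6) mice, 6 on a control diet and 6 on the same diet with BIBB-515, an inhibitor of lanosterol synthase, at 55 mg/kg body weight. The animals were bought at 6 weeks of age, acclimated for 2 weeks and moved from chow to the control diet 3 days before the experiment, so every mouse had eaten the control diet, and BIBB-515 was then given for 10 days. The study had 11 mice per diet. The libraries analysed carry the numbers 1 to 6 for control and 6 to 11 for BIBB-515, and each is a separate mouse, with no genetic change given.

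Cells remove cholesterol in several ways, because they cannot break its ring structure. LXRs, which Nr1h3 and Nr1h2 encode, are nuclear receptors that bind oxysterols, oxidized forms of cholesterol, and switch on genes that export sterols from the cell. In the liver, ABCG5 and ABCG8 form a single transporter that moves sterols into bile, ABCA1 loads cholesterol and phospholipid onto apolipoprotein A-I to start a high-density lipoprotein (HDL) particle, and ABCG1 adds cholesterol to HDL that has already formed. SCARB1 takes cholesterol ester back from HDL, LCAT esterifies cholesterol in the particle in plasma, and SOAT2 esterifies it inside the hepatocyte. NPC1 and NPC2 hand cholesterol out of lysosomes, and LPCAT3 puts polyunsaturated fatty acids into membrane phospholipids.

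Between 22764819 and 27914647 reads per control mouse and between 24223939 and 31058370 per BIBB-515 mouse were counted on genes. Levels are given as CPM, counts scaled to the size of the library after TMM normalization, and comparisons between genes as RPKM, which also divides by gene length. The 20 most counted genes took between 27.7% and 29.8% of the reads in control mice and between 23.6% and 25.2% in BIBB-515 mice. Markers of hepatocytes were abundant, with Alb at 120094 ± 5999.5 CPM (SD, n = 6) on the control diet, as the label liver implies. All 10 hepatocyte markers had negative log2 fold changes. An FDR of 0.05 was passed by 5 of the 10, against 6.48% of all tested genes called lower. These 5 were Alb, Ttr, Trf, Serpina1c and Fgb, the last of which lost the call in 9 of the 12 fits without 1 mouse. The summed level of the 10 markers lay between 85602 and 99482 RPKM in control mice and between 65856 and 73865 RPKM in BIBB-515 mice. Most of this sum was Alb, with means of 58783 RPKM in control and 44505 RPKM in BIBB-515 mice. In bulk liver, fewer cells of a type and less RNA per cell cannot be told apart, and the part of these differences in the results below was not tested.

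Abcg5 and Abcg8 are neighbours on mouse chromosome 17 (mm10), Abcg5 from 84658234 to 84682923 on the minus strand and Abcg8 from 84676302 to 84700333 on the plus strand. Their RefSeq transcripts start head to head, at 84683011 and 84683121, with 109 bases between them that serve as upstream sequence for both. This interval is shown because these 2 genes moved most of the 10 and moved together. It is written on the plus strand, at chr17:84683012-84683120, and the capitals mark 2 copies of AGATAA, a form of the motif of GATA factors, which reads TTATCT on this strand:
Abcg5-Abcg8 interval: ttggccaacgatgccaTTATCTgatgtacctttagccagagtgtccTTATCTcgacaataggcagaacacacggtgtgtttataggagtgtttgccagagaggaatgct
Npc2 was the other gene of the group past the FDR threshold, and the 100 bases before its RefSeq start (chr12:84773113-84773212, minus strand) hold 1 copy of the same motif, in capitals:
Npc2 upstream: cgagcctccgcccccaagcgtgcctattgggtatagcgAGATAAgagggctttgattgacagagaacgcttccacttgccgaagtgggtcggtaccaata
Abca1 is shown because its promoter is a textbook LXR target, while its counts were not higher with BIBB-515. In the 100 bases before its start (chr4:53159896-53159995, minus strand) the capitals mark the closest match to the LXR element, which is a direct repeat of AGGTCA with 4 bases between the copies. The match lies on the strand opposite to the gene and departs from the repeat at 3 positions:
Abca1 upstream: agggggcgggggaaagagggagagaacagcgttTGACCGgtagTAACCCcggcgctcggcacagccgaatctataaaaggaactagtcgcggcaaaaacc

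RefSeq promoter windows (GRCm38.p6) were used for 6 of the 10 genes, Abca1, Abcg5, Abcg8, Lcat, Lpcat3 and Npc2, in 7 windows since Abcg8 has 2 starts. Npc1 was left out of this search. The 250 bases before each start were searched on both strands, overlapping matches included. AGATAA, which was chosen after the Abcg5-Abcg8 interval had been read, was found in Abcg5, Abcg8, Npc2 and Lcat and in 9.99% of 32851 promoters of the same length. The 2 copies in the interval count for both Abcg5 and Abcg8, so for these copies the 2 genes are not separate finds. The Abcg8 window also held a copy beyond the interval, from -127 to -122 relative to its start. The window of the other Abcg8 start held none of the motifs searched. An exact AGGTCA was found in none of these windows and in 14.0% of all promoters. With up to 3 mismatches, a limit set after the Abca1 match was seen, the direct repeat was found in Abca1 and Lcat and in 18.5% of all promoters. With up to 2 mismatches it was found in none of the windows and in 2.57% of all promoters. GGGCGG, the motif of Sp1, was found in Abca1, Lpcat3 and Npc2 and in 32.7% of promoters. TCACNCCAC, a form of the sterol regulatory element, was found in none of the windows and in 1.05% of promoters. These are matches of letters and say nothing about binding.

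All 10 genes passed the filter on low counts, and 3 of them, Abcg5, Abcg8 and Npc2, had an FDR under 0.05 in edgeR's quasi-likelihood test, all higher with BIBB-515. This compares with 13.7% of the 12481 tested genes, 7.18% higher and 6.48% lower. With no adjustment, 6 of the 10 had a p under 0.05, against 29.7% of all tested genes. Values of the 6 BIBB-515 mice and the 6 control mice did not overlap for 2 of the 10, Abcg5 and Abcg8, both higher, against 7.07% of all tested genes (4.35% higher and 2.72% lower). The median log2 fold change was 0.17 over the 10 genes and -0.01 over all tested genes, with 8 positive and 2 negative values in the group. The difference was thus uneven, and the largest log2 fold changes were those of the 2 genes of the transporter of sterols into bile, as the plot of log2 fold changes shows.

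**Figure D1:**
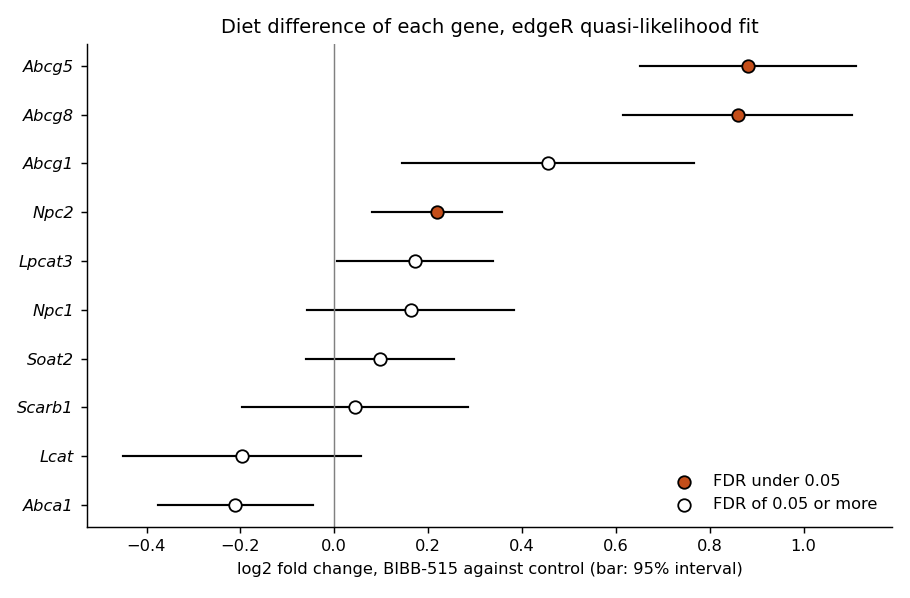
Log2 fold change of each of the 10 genes with BIBB-515 against control (x axis), with its 95% interval from the quasi-likelihood fit of 6 mice per diet; filled points have an FDR under 0.05. Abcg5 (0.88) and Abcg8 (0.86) lie farthest to the right, and Abca1 (-0.21) and Lcat (-0.20) lie left of 0.

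Abcg5, which encodes one part of the biliary sterol transporter, ranged from 115 to 163 CPM in the control mice, with a median of 127 CPM. In the BIBB-515 mice it ranged from 211 to 282 CPM, with a median of 251 CPM. Every BIBB-515 mouse was above every control mouse. Abcg5 rose 1.84-fold, from 135 ± 21.5 CPM to 249 ± 29.4 CPM (SD, n = 6), with a log2 fold change of 0.88 (SE 0.11, 95% interval 0.65 to 1.11, FDR 0.000102 by edgeR). By its p it stood at place 91 of the 12481 tested genes.

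Abcg8, the partner of Abcg5, ranged from 125 to 216 CPM on the control diet with a median of 185 CPM, and from 281 to 365 CPM with BIBB-515, with a median of 320 CPM. Again no BIBB-515 mouse reached down to the highest control mouse. Abcg8 rose 1.81-fold, from 177 ± 31.3 CPM to 322 ± 32.4 CPM (SD, n = 6), with a log2 fold change of 0.86 (SE 0.11, 95% interval 0.62 to 1.10, FDR 0.000235 by edgeR). For both genes a two-sided exact permutation test that took each of the 924 labelings gave p = 0.00216, the smallest it can give. Both stayed past an FDR of 0.05 in every fit that left out 1 mouse and under every other setting tried.

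**Figure D2:**
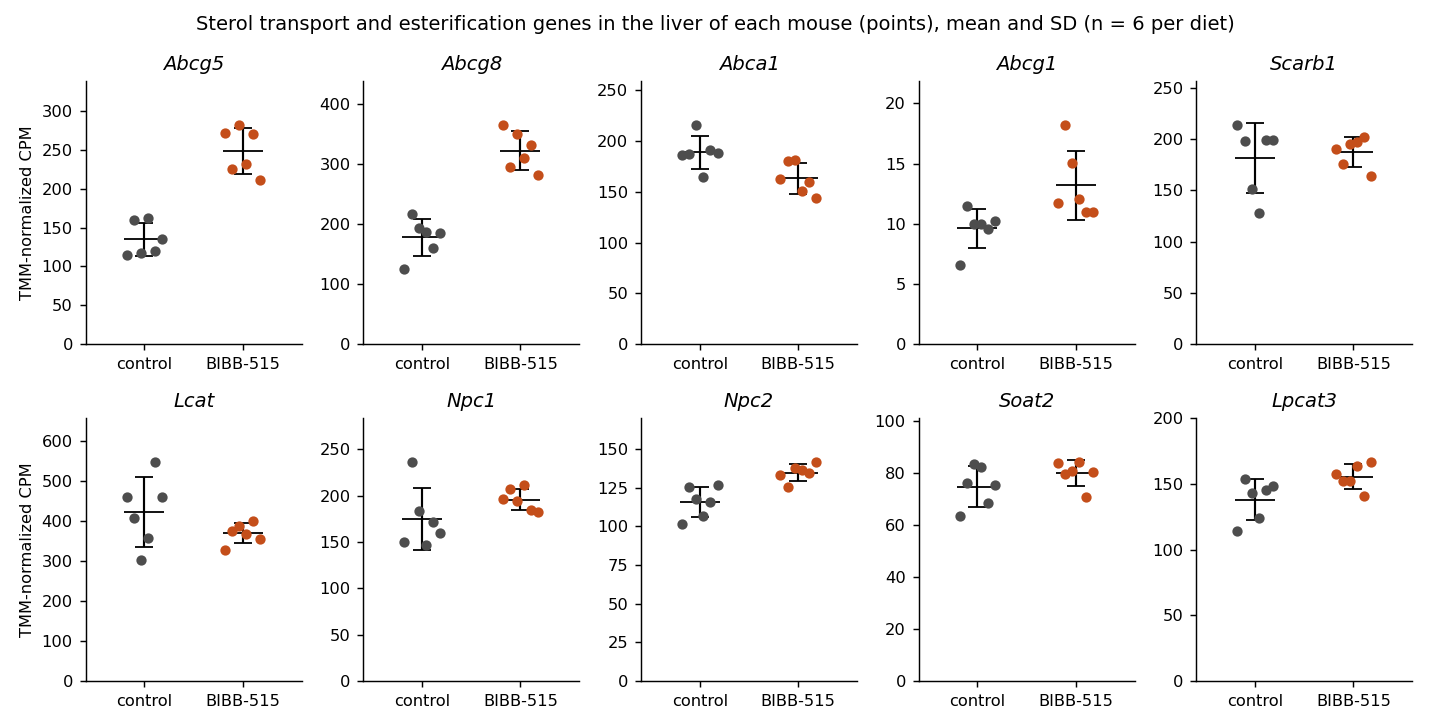
TMM-normalized CPM (y axes, from 0) of the 10 genes in each of the 12 mice, by diet; each point is a mouse, the horizontal bar is the mean and the vertical bar is 1 SD (n = 6 per diet). Abcg5 and Abcg8 are the panels in which the groups do not overlap, and the control mice spread more widely than the BIBB-515 mice for Lcat, Npc1 and Scarb1.

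No difference between the rises of Abcg5 and Abcg8 was detectable. The log2 ratio of Abcg5 to Abcg8 CPM within a mouse was -0.39 ± 0.21 (SD, n = 6) on the control diet and -0.37 ± 0.06 (SD, n = 6) with BIBB-515. Its difference between the diets was 0.01, with a 95% interval of -0.19 to 0.21 (two-sided exact permutation test, p = 0.887). Across the 6 BIBB-515 mice the log2 CPM values of the genes went together, with r = 0.95 (exact permutation p = 0.0111, 0.0222 adjusted over both diets) and rho = 0.94 (exact permutation p = 0.0167, adjusted 0.0333). Without the 2 mice farthest from the median of Abcg5, r was 0.91. Across the 6 control mice r was 0.65 (exact permutation p = 0.157, also after adjustment) and rho 0.54 (exact permutation p = 0.297, also after adjustment), and r was 0.51 without the 2 farthest mice. The relation was therefore past the threshold in the BIBB-515 mice, and whether it differed between the diets was not tested.

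**Figure D3:**
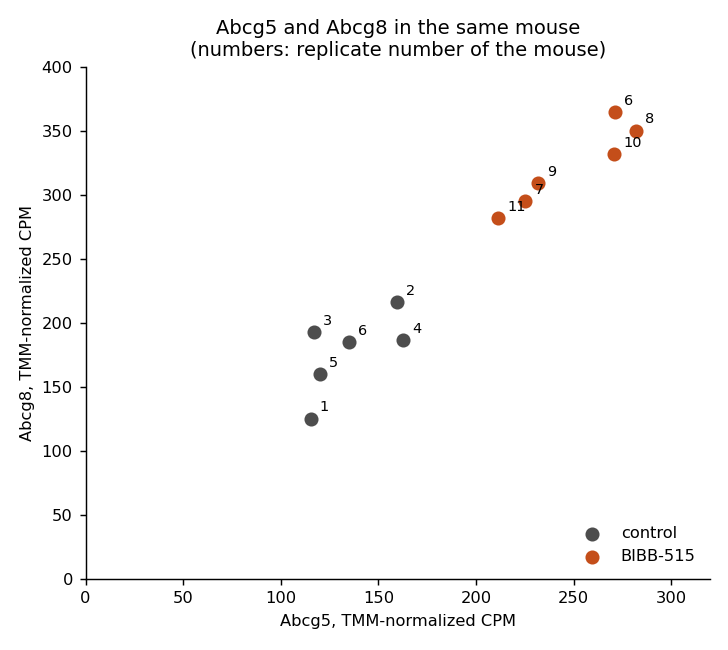
CPM of Abcg5 (x axis) against CPM of Abcg8 (y axis) in each mouse, both axes from 0, with the replicate number beside each point. The 6 BIBB-515 mice lie above and to the right of all 6 control mice, and BIBB-515 mice 6, 8 and 10 are the highest for both genes.

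The rise covered the whole length of both genes. Of the exons of Abcg5, counted from the 5' end, 13 of 13 were higher with BIBB-515, 12 without overlap between the groups, and their log2 ratios of mean CPM lay between 0.76 and 1.02. Of those of Abcg8, 14 of 14 were higher and 12 did not overlap, with log2 ratios between 0.78 and 1.07. In the annotation that the counts used, exons of the 2 genes share 40 bases on opposite strands. The counts take no account of strand, so reads there cannot be assigned to either. In the tables of primary alignments, where such a read counts toward every gene it touches, Abcg5 had a log2 fold change of 0.90 and Abcg8 one of 0.87.

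**Figure D4:**
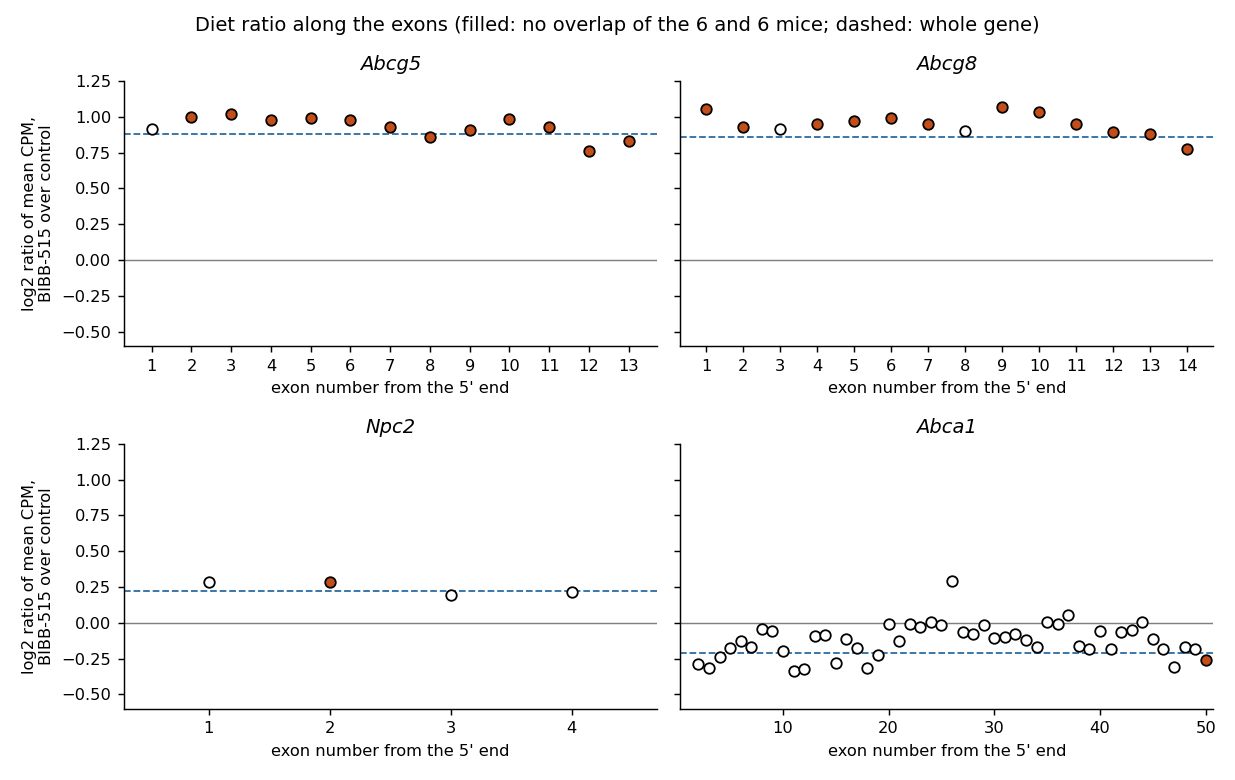
Log2 ratio of mean CPM, BIBB-515 over control (y axis), for each exon with a mean of at least 20 counts, by exon number from the 5' end (x axis), in 4 of the genes; filled points are exons without overlap between the 6 and 6 mice and the dashed line is the log2 fold change of the whole gene. All exons of Abcg5, Abcg8 and Npc2 lie above 0, and 44 of 49 exons of Abca1 lie below it.

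Abca1 and Abcg1, which pass cholesterol to HDL, had log2 fold changes of opposite sign, and neither passed the threshold. Abca1, on chromosome 4 from 53030789 to 53159895, ranged from 165 to 216 CPM in control mice with a median of 188 CPM, and from 144 to 182 CPM in BIBB-515 mice with a median of 161 CPM. Its groups overlapped, though 4 of the 6 BIBB-515 mice were below every control mouse. The log2 fold change of Abca1 was -0.21 (SE 0.08, 95% interval -0.38 to -0.05), with an FDR of 0.0821 by edgeR and an unadjusted exact permutation p of 0.0152. It was past the threshold with DESeq2 (adjusted p 0.0459) and without control mouse 4 (FDR 0.0460 by edgeR). Of its exons with enough counts, 44 of 49 had negative log2 ratios. Summed over the first 35 exons from the 5' end the log2 ratio was -0.11, and over the last 15 it was -0.21. The last exon, with 3295 bases and a mean of 2878 counts, was without overlap between the groups, with a log2 ratio of -0.26.

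Abcg1, on chromosome 17 from 31057694 to 31117981, was the least expressed of the 10, with between 170 and 587 counts per mouse. It ranged from 6.58 to 11.5 CPM in control mice (median 9.98 CPM) and from 11.0 to 18.2 CPM in BIBB-515 mice (median 11.9 CPM). The groups overlapped through control mouse 2, and 4 of the 6 BIBB-515 mice were above every control mouse. Its log2 fold change was 0.46 (SE 0.15, 95% interval 0.14 to 0.77), with an FDR of 0.0510 by edgeR and an unadjusted exact permutation p of 0.00649. This value lay so close to the threshold that it passed without control mouse 2 (FDR 0.0365 by edgeR) and in 4 of the 8 other alternatives that kept all mice.

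The log2 ratio of Abca1 to Abcg1 within a mouse was 4.31 ± 0.30 (SD, n = 6) on the control diet and 3.65 ± 0.20 (SD, n = 6) with BIBB-515. Its difference between the diets was -0.66 with a 95% interval of -0.98 to -0.34 (two-sided exact permutation test, p = 0.00216, adjusted 0.00749 over the 45 pairs of the 10 genes). Such ratios do not depend on how the libraries were scaled. Of the 45 pairs, 22 had an adjusted exact permutation p under 0.05. Among these were 15 of the 16 pairs that join Abcg5 or Abcg8 with one of the other 8 genes, and pairs that share a gene are not independent. The exception was Abcg1 with Abcg5, where the log2 ratio of Abcg1 to Abcg5 differed by -0.44 (95% interval -0.82 to -0.07, exact permutation p = 0.0281, adjusted 0.0528). Abca1 took part in 5 of the other 7, with Abcg1, Lpcat3, Npc1, Npc2 and Soat2, and was lower relative to each with BIBB-515.

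Scarb1 and Lcat act on HDL cholesterol, and neither passed the threshold. Scarb1, on chromosome 5 from 125277087 to 125341094, ranged from 128 to 214 CPM in control mice (median 199 CPM) and from 165 to 202 CPM in BIBB-515 mice (median 193 CPM). The BIBB-515 mice lay inside the range of the controls. Its log2 fold change was 0.04 (SE 0.11, FDR 0.829 by edgeR), and the 95% interval of -0.20 to 0.29 includes changes of up to 1.22-fold upward. Without control mouse 4, the lowest of its group, the value was -0.027.

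Lcat, on chromosome 8 from 105939551 to 105943402, was the most abundant of the 10 per length, at 310 ± 63.8 RPKM in control mice and 271 ± 18.5 RPKM in BIBB-515 mice (SD, n = 6). It ranged from 301 to 548 CPM on the control diet (median 434 CPM) and from 328 to 400 CPM with BIBB-515 (median 371 CPM). Here too the BIBB-515 mice lay inside the control range, which was the wider. Lcat had a log2 fold change of -0.20 (SE 0.12, 95% interval -0.45 to 0.06, FDR 0.291 by edgeR), negative in 6 of its 6 exons. In the fits without 1 mouse it lay between -0.27 and -0.10. Control mouse 5 was the highest of all and control mouse 3 the lowest. The value passed the threshold only in the fit with 1 surrogate variable (FDR 0.0371 by edgeR).

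Npc2, which binds cholesterol inside the lysosome, was the third gene past the threshold and had the smallest change of the 3. It lies on chromosome 12 from 84754559 to 84773112. It ranged from 102 to 127 CPM in control mice (median 117 CPM) and from 125 to 142 CPM in BIBB-515 mice (median 135 CPM). Of the 6 BIBB-515 mice, 5 were above every control mouse, and the lowest of them, mouse 7, lay within the control range. Npc2 rose 1.16-fold, with a log2 fold change of 0.22 (SE 0.06, 95% interval 0.08 to 0.36, FDR 0.0367 by edgeR, exact permutation p = 0.00649). Its 4 exons were all higher, with log2 ratios between 0.20 and 0.29. The call was lost in 7 of the 12 fits that left out 1 mouse, those without control mouse 1 or 4 or without BIBB-515 mouse 6, 8, 9, 10 or 11, with FDRs between 0.0511 and 0.0769 by edgeR.

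Npc1, the membrane partner of Npc2, ranged from 147 to 237 CPM in control mice (median 166 CPM) and from 182 to 211 CPM in BIBB-515 mice (median 195 CPM). Control mouse 2 was above all the others, and the next control mouse, at 184 CPM, was close to the lowest BIBB-515 mouse. The log2 fold change of Npc1 was 0.16 (SE 0.10, 95% interval -0.06 to 0.38, FDR 0.318 by edgeR), and without control mouse 2 it was 0.27 (FDR 0.0266 by edgeR). All 24 of its exons with enough counts had positive log2 ratios. Stretches of 50 bases that other transcripts also hold make up 8.95% of its own, so part of its reads may be lost. The log2 ratio of Npc1 to Npc2 within a mouse differed between the diets by -0.04 (95% interval -0.25 to 0.17, exact permutation p = 0.682).

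Soat2, the enzyme that esterifies cholesterol in hepatocytes, ranged from 63.2 to 83.3 CPM on the control diet (median 75.5 CPM) and from 70.6 to 84.2 CPM with BIBB-515 (median 80.6 CPM). The groups overlapped almost wholly, and BIBB-515 mouse 10 lay well below the rest of its group. Its log2 fold change was 0.10 (SE 0.07, 95% interval -0.06 to 0.25, FDR 0.412 by edgeR), and between 0.053 and 0.14 in the fits without 1 mouse. Soat2 lies on chromosome 15 from 102150575 to 102163436, and its 15 exons all had positive log2 ratios of at most 0.24.

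Lpcat3, a target of LXRs that acts on phospholipids, ranged from 114 to 154 CPM in control mice (median 144 CPM) and from 141 to 167 CPM in BIBB-515 mice (median 155 CPM). Of the 6 BIBB-515 mice, 3 were above every control mouse. Its log2 fold change was 0.17 (SE 0.08, 95% interval 0.01 to 0.34, FDR 0.154 by edgeR, unadjusted exact permutation p = 0.0390). It lies on chromosome 6 from 124663104 to 124704716, where its exons share 289 bases with those of Emg1, and 12.8% of its stretches of 50 bases are also found in other transcripts. In the tables of primary alignments it had a log2 fold change of 0.16.

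Per length, the order of the genes was led by Lcat and closed by Abcg1 on both diets. On the control diet Abcg5 (59.6 RPKM), Scarb1 (58.6 RPKM), Lpcat3 (55.2 RPKM) and Abcg8 (47.3 RPKM) followed Lcat, and the ranges of neighbours among these overlapped. Npc2 (35.5 RPKM), Soat2 (35.1 RPKM) and Npc1 (33.6 RPKM) overlapped too, and Abca1 (18.4 RPKM) and Abcg1 (1.66 RPKM) stood apart below them. With BIBB-515 Abcg5 reached 110 ± 13.0 RPKM and Abcg8 85.9 ± 8.65 RPKM (SD, n = 6). The lowest Abcg8 mouse, at 75.1 RPKM, was then above the highest Lpcat3 mouse, at 66.7 RPKM. Scarb1 (60.4 RPKM), Npc2 (41.3 RPKM), Npc1 (37.6 RPKM), Soat2 (37.6 RPKM), Abca1 (15.9 RPKM) and Abcg1 (2.27 RPKM) followed Lpcat3 (62.2 RPKM). The spread between mice, as the coefficient of variation of CPM, was 20.6% in control and 6.85% in BIBB-515 mice for Lcat, 19.0% and 5.96% for Npc1, and 18.6% and 7.66% for Scarb1, a difference that was not tested. Summed over the 10 genes, the level lay between 563 and 741 RPKM in control mice and between 680 and 763 RPKM in BIBB-515 mice.

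The receptors themselves did not pass the threshold. Nr1h3, which encodes the main LXR of liver, was at 124 ± 16.9 CPM in control mice and 119 ± 6.53 CPM in BIBB-515 mice (SD, n = 6), with a log2 fold change of -0.06 (95% interval -0.24 to 0.12, FDR 0.675 by edgeR). Nr1h2 was at 48.1 ± 3.21 CPM and 52.3 ± 2.67 CPM (SD, n = 6), with a log2 fold change of 0.12 (FDR 0.182 by edgeR).

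Among other genes listed as LXR targets few passed the threshold. Of 16 tested, 1 was higher and 1 lower past the threshold, 12.5% against 13.7% of all tested genes, and their median log2 fold change was -0.12. Scd2, a fatty acid desaturase, rose from 9.30 ± 2.80 CPM to 30.0 ± 3.99 CPM (SD, n = 6), with a log2 fold change of 1.69 (FDR 9.34e-06 by edgeR). Apoc1, an apolipoprotein, fell by 0.30 on the log2 scale (FDR 0.0163 by edgeR). Srebf1, which encodes the lipogenic factor that LXRs induce, had a log2 fold change of -0.17 (95% interval -0.51 to 0.17, FDR 0.507 by edgeR). Mylip, which encodes the ligase that degrades the LDL receptor, had one of 0.09 (95% interval -0.16 to 0.34, FDR 0.652 by edgeR). In the fits without 1 mouse Srebf1 lay between -0.25 and -0.077 and Mylip between 0.025 and 0.16. The other 12 genes of the list did not pass the threshold.

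Enzymes that make or break down oxysterols, which include LXR ligands, held the largest log2 fold change of these lists. Of 7 tested, 3 were higher past the threshold and none lower, against 7.18% of all tested genes called higher, with a median log2 fold change of 0.43. Cyp3a11, which hydroxylates cholesterol among many drugs and steroids, rose by 3.24 on the log2 scale, from 1537 ± 166 CPM to 14544 ± 1897 CPM (SD, n = 6, FDR 2.31e-10 by edgeR). Cyp7b1, which hydroxylates oxysterols on the way to bile acids, had a log2 fold change of 0.63 (FDR 0.00320 by edgeR). For Cyp3a11 every BIBB-515 mouse was above every control mouse, and for Cyp7b1 5 of 6 were.

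Genes of the HDL particle and its remodelling gave 3 of 12 called, all lower, against 6.48% of all tested genes called lower. Apoa4, an apolipoprotein of HDL and chylomicrons, fell by 1.15 on the log2 scale, from 1255 ± 352 CPM to 566 ± 115 CPM (SD, n = 6, FDR 0.00161 by edgeR). Bmp1, a protease that acts on the precursor of apolipoprotein A-I, had a log2 fold change of -0.34 (FDR 0.0144 by edgeR). Lipg, endothelial lipase, had one of -0.79 (FDR 0.0469 by edgeR), which lost the threshold in 10 of the 12 fits without 1 mouse.

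Genes of lysosomal and intracellular cholesterol transport moved both ways, with 2 higher and 2 lower of 17 tested (23.5%, against 13.7% of all tested genes). Tmem97, whose protein binds NPC1, had a log2 fold change of 0.44 (FDR 0.0109 by edgeR) and Osbp, an oxysterol-binding carrier, one of 0.36 (FDR 0.0318 by edgeR), a call lost in 9 of the 12 fits without 1 mouse. Gramd1c, a carrier between plasma membrane and endoplasmic reticulum, fell by 0.58 on the log2 scale (FDR 0.00111 by edgeR) and Osbpl8 by 0.62 (FDR 0.00519 by edgeR). Of 10 tested genes of sterol ester formation and hydrolysis, 2 were higher and 2 lower (40.0%, against the same 13.7%). Ces1d, a carboxylesterase that hydrolyses neutral lipid, rose by 1.02 on the log2 scale, from 609 ± 159 CPM to 1232 ± 165 CPM (SD, n = 6, FDR 0.000764 by edgeR). Lipe, hormone-sensitive lipase, had one of 0.27 (FDR 0.0331 by edgeR), while Ces3b (-0.87, FDR 0.0149 by edgeR) and Aadac (-0.24, FDR 0.0236 by edgeR) were lower.

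Targets of SREBP2, the factor that turns on cholesterol synthesis and uptake, are given beside the efflux genes for comparison. A shared cause was not tested. Of 18 tested, 4 were higher past the threshold and none lower, 22.2% of the list against 7.18% of all tested genes called higher, with a median log2 fold change of 0.41. The log2 fold changes of the called genes were 1.17 for Cyp51, 1.16 for Idi1, 1.12 for Mvk and 0.71 for Fdft1. The values for Abcg5 and Abcg8 thus lay between those of Fdft1 and Mvk. Lss, the gene of the enzyme that BIBB-515 inhibits, had a log2 fold change of 0.78 (95% interval 0.16 to 1.40, FDR 0.0854 by edgeR), and without control mouse 3 its FDR was 0.00266 by edgeR. Over all these lists other than the 10 genes, 23 genes were called, of which 16 stayed past the threshold in each of the 12 fits without 1 mouse. Aadac, Abca7, Fdft1, Lipe, Lipg and Osbp were among the other 7.

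**Figure D5:**
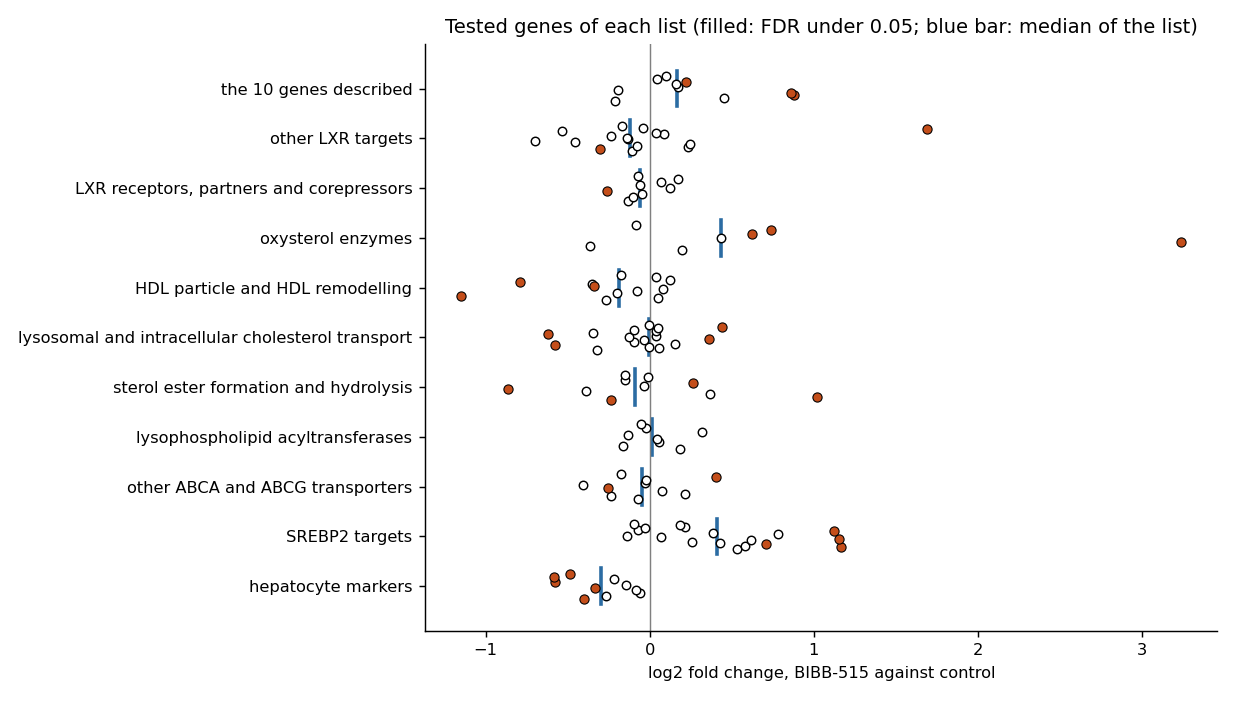
Log2 fold change with BIBB-515 against control (x axis) of every tested gene in each list (rows); filled points have an FDR under 0.05 and the blue bar is the median of the list. Medians of the oxysterol enzymes (0.43) and SREBP2 targets (0.41) lie right of 0, and all hepatocyte markers lie left of 0.

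After the mean of each diet was removed, the genes of the group differed in which other genes followed them from mouse to mouse, as described by Pearson's r of log2 CPM over the 12 mice. Lcat was closest to Msrb1 (r = 0.98) and Arl6ip1 (r = 0.98), Scarb1 to Cpn2 (r = 0.97) and Taco1 (r = 0.96), and Soat2 to Maged2 (r = 0.96) and Anxa1 (r = 0.91). Npc2 was closest to Dhrs13 (r = 0.94) and Hnf4a (r = 0.91), Npc1 to Gal3st1 and Pdzrn3 (both r = 0.93), and Lpcat3 to Adck4 (r = 0.93) and Ube2q1 (r = 0.90). For Abca1 these were Wdfy2 (r = 0.92) and Myh9 (r = 0.91), for Abcg1 Clstn3 and Gnai2 (both r = 0.90), for Abcg5 Gzmb (r = 0.89) and Arv1 (r = 0.88), and for Abcg8 P2rx4 (r = 0.87) and 9130409I23Rik (r = 0.86). Within the group the values were r = 0.86 for Lpcat3 with Npc2, r = 0.73 for Abcg5 with Abcg8, r = 0.71 for Lcat with Scarb1 and r = -0.77 for Soat2 with Lcat. With so many genes compared, high values arise readily, and mice share library and depth effects across genes. Control mouse 2 was the highest of its group for both Npc1 and Gal3st1. BIBB-515 mouse 10 was the lowest of its group for both Soat2 and Maged2. How far these mice set the values of r was not tested.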

How the data were processed

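For each mouse the authors deposited whole-number counts of reads per gene, per exon and per gene from primary alignments, which the file headers say were made with featureCounts of Subread 1.6.3 on a UCSC annotation of mm10, without strand. The submitters' processing notes also name STAR 2.5.3a. Transcript tables were not used. Reads of several places or genes are missing from the gene counts.

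Genes that reached 1 CPM in 2 or more of the 12 mice entered the analysis. They were scaled by TMM, and diet was tested without covariates by edgeR's quasi-likelihood test (edgeR 4.0.16, R 4.3.3), with Benjamini-Hochberg adjustment over 12481 genes (FDR). SEs are the log2 fold change over the root of F. On simulated counts the test recovered 96.5% of 200 changed genes among 12364, with 3.98% false. These shares apply only to the changes that were simulated. They are not the power for the changes reported here, in particular the small ones. RPKM used the tables' lengths. Exons needed a mean of 20 counts. Exact permutation tests took all 924 labelings. The biological coefficient of variation was 0.143. Sequence came from RefSeq and GENCODE tables.

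The 10 genes, the lists and the tests were chosen with earlier results of these data known. Named list genes are at most 4 per list past an FDR of 0.05, with the receptors, Srebf1, Mylip and Lss and the 2 genes most like each of the 10. Alternatives were RLE and upper-quartile scaling, DESeq2 1.42.0, limma-voom (limma 3.58.1), no filter, 1 CPM in 6 mice, the primary tables, 1 surrogate variable (sva 3.50.0) and each mouse left out. Neither labels nor headers name a batch, and protein sequences were not used here. A few list genes are counted but not reported by name.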

Additional observations from a re-analysis of the deposited data

Results flagged for a closer look

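Among 116 groups of 6 mice examined over 58 genes, 6 held a mouse far from the others, against 5.8 that chance alone would give. The gap to the nearest mouse, as a share of the range of the group, was 0.648 for Soat2 in BIBB-515 mouse 10, the lowest at 70.6 CPM against 79.4 CPM for the next. The same mouse was the lowest for Maged2, the gene most like Soat2, with a share of 0.644 (5.75 against 7.29 CPM). Control mouse 3 was the highest for Scd2, with a share of 0.643 (14.5 against 9.55 CPM), and for Osbp, with a share of 0.626 (75.8 against 57.4 CPM). Control mouse 2 was the highest for Gal3st1, the gene most like Npc1, with a share of 0.811 (7.20 CPM). BIBB-515 mouse 11 was the highest for Tmem97, with a share of 0.719 (127 against 114 CPM).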

How the results depend on the processing

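Among the 10 genes, 3 were called in the reported fit. There were 5 with DESeq2 in place of edgeR, which added Abca1 and Abcg1, 5 with 1 surrogate variable, which added Abcg1 and Lcat, and 5 without control mouse 2, which added Abcg1 and Npc1. With each of the 12 mice left out in turn the number was between 2 and 5, over all genes between 1199 and 1865, over the other lists between 17 and 28, and the number of the 10 without overlap between 2 and 3. With all mice kept, the number over all genes lay between 1489 and 2407. Abcg5 stayed between 0.84 and 0.95 on the log2 scale and Abcg8 between 0.78 and 0.92. Without a filter on low counts Npc2 had an FDR of 0.0513 and Abcg1 one of 0.0489 (edgeR). The sign turned for Scarb1 without control mouse 4 (-0.027, and between that and 0.097 over the fits without 1 mouse) and for Nr1h3 without control mouse 5 (0.00052, and down to -0.11), both near 0, and the cause was not tested. No paired analysis was possible because each library is a separate mouse, on either the control diet or BIBB-515. With 6 mice per diet the exact test cannot go below 0.00216, and depth limited the exon values of Abcg1, of which 1 reached 20 counts.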

Other observations

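Of 8 tested lysophospholipid acyltransferases other than Lpcat3, none passed an FDR of 0.05 in edgeR's quasi-likelihood test, and 0 had an unadjusted p under 0.05. Their median log2 fold change was 0.01. Of 10 tested ABCA and ABCG transporters other than those above, Abcg2, which exports drugs and conjugates, was higher with a log2 fold change of 0.40 (FDR 0.0158 by edgeR). Abca7 was lower, with a log2 fold change of -0.25 (FDR 0.0448 by edgeR), a call that 9 of the 12 fits without 1 mouse did not keep. Together Abcg2 and Abca7 were 20.0% of the transporters tested, against 13.7% of all tested genes called.

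Markers of other cells gave few calls. Of 11 tested markers of Kupffer cells, the liver macrophages in which Abca1 and Abcg1 are also expressed, none passed an FDR of 0.05 in edgeR's quasi-likelihood test, and 0 had an unadjusted p under 0.05. Their summed level lay between 314 and 511 RPKM in control mice and between 322 and 520 RPKM in BIBB-515 mice. None of 10 endothelial markers passed it either (1 with an unadjusted p under 0.05 by edgeR), nor any of 6 bile duct markers (1), 4 leukocyte markers (0) and 1 fat cell marker (0). Of 10 markers of stellate cells and matrix, Lrat and Dcn were lower, with log2 fold changes of -0.81 (FDR 0.0202 by edgeR) and -0.27 (FDR 0.0398 by edgeR). These were 20.0% of the list, against 6.48% of all tested genes called lower. The call of Dcn was lost in 8 of the 12 fits without 1 mouse. The part of these markers in the values of the 10 genes was not tested.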
